A study of Mus musculus with 12 samples.

Results

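Hemoglobin and erythroid transcripts were examined in bulk RNA-seq of mouse kidney through 6 genes taken by name from a table of 55487 gene identifiers. They were the adult α-globin genes Hba-a1 and Hba-a2, the adult β-globin genes Hbb-bs and Hbb-bt, the erythroid heme synthesis gene Alas2 and the red cell enzyme gene Bpgm. All 6 genes had enough counts to be tested in every comparison. The question put to them was how much red cell RNA each library held relative to its other RNA. It was also asked whether that level differed with the knockout or with injury. The 12 libraries formed 4 groups of 3. Control mice (Ctrl), named WT in the labels and carrying the floxed ALR allele without Cre in the study's methods, had a sham operation. Knockout mice (PT-KO), named ALR knockdown in the labels and carrying ALR flox/flox with Ggt1-Cre, also had a sham operation. The study describes this deletion as one made in proximal tubular cells. Whether blood cells were spared is not stated in the sources used here. The Ctrl+I/R and PT-KO+I/R groups had the same genotypes, and in them the blood flow to both kidneys was stopped for 22 min and restored for 24 h. All mice were 6 to 8 weeks old. The labels do not say whether each library came from a separate mouse, so p-values measure only the spread between these libraries. Neither the labels nor the methods used here state whether the kidneys were flushed of blood.

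Some libraries stood apart or went against their labels. Ctrl 1 and Ctrl 2 carried 22402 and 19755 counts of the female transcript Xist and 0 counts of 4 Y-linked genes, while the other 10 libraries were male by the same genes. Ctrl 3 is therefore the only male sham control, and its number matches no sample title, so it was placed in its group by its column name. Gfer, which encodes ALR, was not lower in the libraries labelled PT-KO (158, 318 and 245 counts) than in Ctrl (253, 186 and 260 counts). The log2 difference was 0.13 (SE 0.20, adjusted p = 0.761), and it was 0.32 (SE 0.13, adjusted p = 0.0723) between the injured groups. The engineered deletion removes part of the gene in tubule cells, and the counts cover the whole gene in all cells of the tissue. Whether they could show the deletion was not tested, and genotypes are those of the labels. The labels call the tissue kidney cortex. The summed level of 2 inner medulla genes lay between 25.8 and 102 CPM (counts scaled to a common library size), against 2359 to 12417 CPM for 8 proximal tubule genes. The inner medulla sum differed between the injured groups, as given below. Library totals ranged from 12165089 to 23123693 counts.

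Hemoglobin is a tetramer of α and β chains, each holding a heme. Its genes are switched on in erythroblasts of the marrow by GATA1 and KLF1, and mature red cells keep globin mRNA for a short time after they lose the nucleus. Globin mRNA in an adult solid organ is therefore usually read as RNA carried in by circulating reticulocytes. Alas2 is the erythroid form of the enzyme that starts heme synthesis, and Alas1 is the form used by other tissues. Bpgm makes the bisphosphoglycerate that lowers the oxygen affinity of hemoglobin.

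The coding sequences are shown because the paired globin genes share much of their sequence. In GENCODE M21 the coding sequences of Hba-a1 and Hba-a2, both 429 bases with the stop codon, differ by 1 substitution, C381T (Hba-a1 base, position from 1 at the start codon, Hba-a2 base). Those of Hbb-bs and Hbb-bt, both 444 bases, differ by C417T. The bases that differ are in capitals.
Hba-a1, coding bases 361 to 420: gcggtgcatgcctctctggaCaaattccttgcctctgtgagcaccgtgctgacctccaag
Hba-a2, coding bases 361 to 420: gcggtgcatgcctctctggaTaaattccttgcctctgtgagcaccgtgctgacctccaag
Hbb-bs, coding bases 397 to 444: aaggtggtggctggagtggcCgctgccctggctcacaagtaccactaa
Hbb-bt, coding bases 397 to 444: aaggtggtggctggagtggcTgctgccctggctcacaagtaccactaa
Of all 100-base stretches, 56.5% of those of the Hba-a1 transcript occur unchanged in Hba-a2 and 74.5% the other way, and 62.6% of those of Hbb-bs occur in Hbb-bt and 54.8% the other way. How the authors' counting assigned such reads is not given in the sources used here, so the split within each pair is uncertain, and the sums are the firmer values.

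The sequence before the start sites is shown as background on these genes. Whether it bears on how they varied across libraries was not tested. The stretches are from RefSeq promoter windows on GRCm38, the assembly of the submitters' mm10, kept where GENCODE has no exon of the gene. The capitals mark 4 motifs searched on both strands: the GATA motif, CCAAT, the TATA motif (TATAA) and CACCC, the core of the element that KLF1 binds. The letters taken as the GATA motif were AGATAA or its variant ending in G, which is AGATAG, and the forms that open with T, namely TGATAA or else TGATAG.
Hba-a2, chr11:32296242-32296488, plus strand: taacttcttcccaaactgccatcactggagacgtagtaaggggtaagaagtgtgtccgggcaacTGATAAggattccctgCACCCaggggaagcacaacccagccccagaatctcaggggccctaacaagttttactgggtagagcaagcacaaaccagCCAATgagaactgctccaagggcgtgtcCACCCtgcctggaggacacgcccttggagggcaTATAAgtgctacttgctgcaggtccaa
Hbb-bs, chr7:103828097-103828178, minus strand: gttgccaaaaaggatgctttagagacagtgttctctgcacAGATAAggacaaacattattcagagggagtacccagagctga
Hbb-bs, chr7:103827929-103828011, minus strand: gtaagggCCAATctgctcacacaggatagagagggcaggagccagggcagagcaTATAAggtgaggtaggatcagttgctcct
Alas2, chrX:150547167-150547374, plus strand: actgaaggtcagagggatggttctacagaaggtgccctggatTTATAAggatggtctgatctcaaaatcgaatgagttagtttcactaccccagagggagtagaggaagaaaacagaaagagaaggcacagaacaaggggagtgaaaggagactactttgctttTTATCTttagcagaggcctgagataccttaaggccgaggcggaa
Bpgm, chr6:34476106-34476206, plus strand: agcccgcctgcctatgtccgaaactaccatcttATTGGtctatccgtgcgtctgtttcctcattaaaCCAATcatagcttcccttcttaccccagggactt
In the 250 bases before the RefSeq start, the GATA motif was found in Hba-a1, Hba-a2, Hbb-bs and Alas2 and not in Hbb-bt or Bpgm. It occurs in 26.5% of 32851 such windows. CACCC, present in 52% of the windows, was found in the other 5 genes and not in Bpgm, and its matches in Hbb-bs and Alas2 lie outside the stretches shown. The windows of Hba-a1 and Hba-a2 share an unbroken run of 247 bases. Matches that overlap, as in Alas2, are capitalised as 1 stretch. A match of letters does not show that a factor was bound there.

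Globin mRNA was a very small part of the RNA in every kidney. The 4 adult globin genes took between 0.00393% (95% Wilson interval 0.00368 to 0.0042) of counts in PT-KO+I/R 3 and 0.0223% (0.0216 to 0.0231) in Ctrl+I/R 4. These intervals cover counting error only. The mean share was 0.0163% ± 0.00637 (SD, n = 3) in Ctrl, 0.0139% ± 0.00735 in Ctrl+I/R, 0.00671% ± 0.00229 in PT-KO and 0.00424% ± 0.000272 in PT-KO+I/R. All 3 PT-KO+I/R libraries lay below every other library, though the interval of the next, PT-KO 1 at 0.00446% (0.00415 to 0.00479), overlapped theirs, and on the TMM scale PT-KO 1 (46.4 CPM) lay within their range (40.5 to 47.1 CPM). Scaled with TMM, the normalization of edgeR that allows for library composition, the summed globin level of the highest library was 5.75 times that of the lowest. These values are relative to the other RNA of the library and are not amounts per kidney. In bulk tissue, fewer red cells, less globin RNA per red cell and more of the other RNA cannot be told apart.

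Hbb-bs, the β-globin gene with most counts, made up most of the signal. It was at 65.9, 116 and 161 CPM in Ctrl 1, 2 and 3 and at 54.6, 69.6 and 148 CPM in Ctrl+I/R 1, 2 and 4. The PT-KO libraries 1, 2 and 4 held 33.6, 72.8 and 50.1 CPM, and the PT-KO+I/R libraries 2, 3 and 4 held 30.3, 27.6 and 32.4 CPM. The PT-KO+I/R values lay below all others and close together, while the Ctrl and PT-KO ranges overlapped. Hbb-bt, the companion β gene, was at 8.6, 17.4 and 24.7 CPM in Ctrl and at 7.82, 9.24 and 21.5 CPM in Ctrl+I/R, in the same library order. Its PT-KO values were 4.42, 10.6 and 9.33 CPM, and its PT-KO+I/R values 6.16, 3.52 and 4.97 CPM. For Hbb-bt, PT-KO 1 lay within the PT-KO+I/R range.

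Of the α genes, Hba-a1 was at 13.9, 29.2 and 39.1 CPM in Ctrl and at 13.2, 17.4 and 29.7 CPM in Ctrl+I/R. Its PT-KO values were 7.51, 14.2 and 9.51 CPM, and its PT-KO+I/R values 7.62, 8.06 and 8.06 CPM. The coefficient of variation was 3.23% in PT-KO+I/R, under the 8.71% that counting error alone gives, and 42.5% in Ctrl+I/R. PT-KO 1 lay just below the PT-KO+I/R libraries. Hba-a2 had only 15 to 133 counts per library. It was at 2.11, 3.18 and 7.37 CPM in Ctrl, 2.23, 1.62 and 4.55 CPM in Ctrl+I/R, 0.947, 3.82 and 1.53 CPM in PT-KO and 1.88, 1.34 and 1.68 CPM in PT-KO+I/R. The PT-KO range of Hba-a2 overlapped those of the other 3 groups, while every Ctrl library lay above every PT-KO+I/R library.

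Alas2, whose product makes the heme precursor for hemoglobin, was at 3.42, 7.16 and 8.2 CPM in Ctrl and at 4.29, 6.21 and 11.1 CPM in Ctrl+I/R. Its PT-KO values were 1.77, 4.36 and 3.68 CPM, and its PT-KO+I/R values 1.37, 1.47 and 2.39 CPM. As with the globins, Ctrl 3 and Ctrl+I/R 4 were the highest libraries of their groups. Bpgm was the exception among the 6. It was at 44.6, 42.4 and 58.7 CPM in Ctrl, 48.3, 51 and 60.3 CPM in Ctrl+I/R, 51.6, 59.7 and 55.6 CPM in PT-KO and 44.7, 40.2 and 42 CPM in PT-KO+I/R. Its highest library was 1.5 times its lowest, and Ctrl 1 and Ctrl 2 lay within the PT-KO+I/R range.

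**Figure D1:**
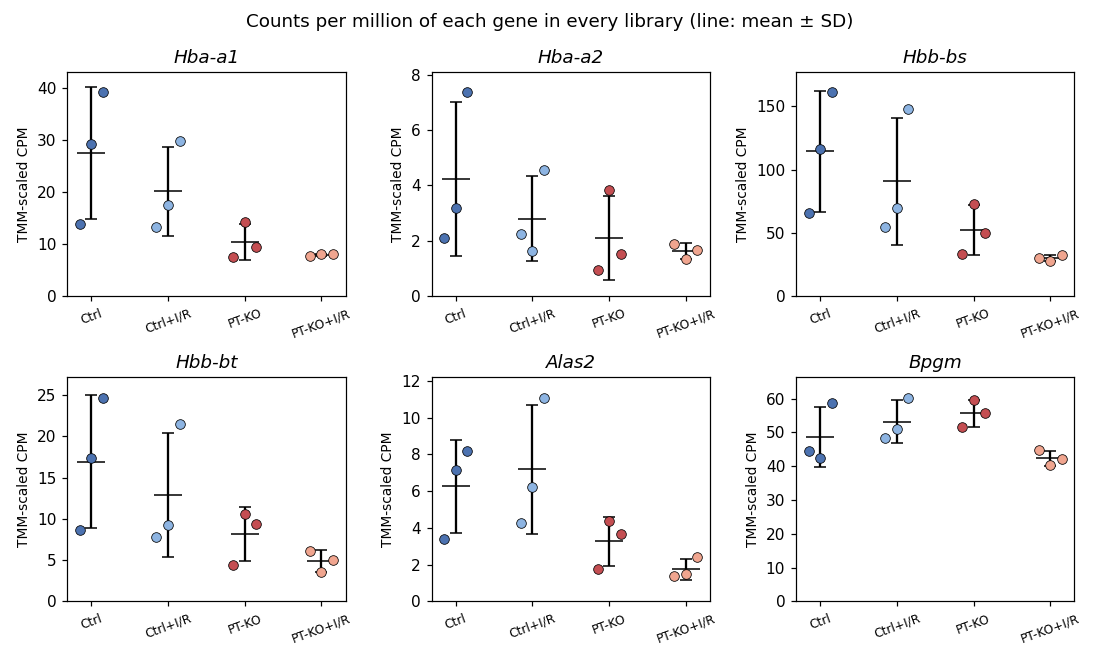
TMM-scaled CPM (vertical axis, from 0) of each of the 6 genes in the 12 libraries, by group on the horizontal axis; points are libraries and black lines the mean ± SD of 3. Hba-a1 and Hbb-bs are low and close together in PT-KO+I/R (Hbb-bs 27.6 to 32.4 CPM) and scattered in Ctrl and Ctrl+I/R (Hbb-bs 54.6 to 161 CPM), while Bpgm spans 40.2 to 60.3 CPM.

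Per kilobase of exon, Hbb-bs was the most abundant member in every group, at a mean of 149 RPKM in Ctrl and 39.2 RPKM in PT-KO+I/R. Hba-a1 followed at 33.7 RPKM in Ctrl, then Hbb-bt at 24 RPKM and Bpgm at 13.5 RPKM, and in Ctrl the range of Hbb-bt (12.2 to 35.1 RPKM) overlapped those of Hba-a1 (17.1 to 48.1 RPKM) and Bpgm (11.8 to 16.4 RPKM), which did not overlap each other. Hba-a2 at 6.33 RPKM and Alas2 at 2.6 RPKM came last, also with overlapping ranges (3.17 to 11.1 and 1.42 to 3.41 RPKM). Bpgm was second in both knockout groups. In PT-KO it was at 15.5 RPKM, above Hba-a1 at 12.8 RPKM with overlapping ranges. Its PT-KO+I/R mean was 11.8 RPKM, above Hba-a1 at 9.74 RPKM with ranges (11.2 to 12.4 and 9.38 to 9.93 RPKM) that did not overlap.

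The comparison of injured kidneys by genotype gave the clearest difference. In libraries labelled PT-KO+I/R, 5 of the 6 genes fell relative to Ctrl+I/R, where 46.9% of 15281 tested genes were called in either direction and 24.4% were called lower. Alas2 fell most, with a log2 fold change of -2.04 (SE 0.41, adjusted p = 0.0051), a level 4.12-fold lower. Hbb-bs fell by 1.60 on the log2 scale (SE 0.34, adjusted p = 0.00691), Hbb-bt by 1.42 (SE 0.41, adjusted p = 0.0234) and Hba-a1 by 1.35 (SE 0.28, adjusted p = 0.00653). Bpgm fell by only 0.34 (SE 0.11, adjusted p = 0.041). Hba-a2 had a log2 fold change of -0.79 (SE 0.42, adjusted p = 0.158) and was not called. The median over the 6 genes was -1.38, beside -0.005 over all genes tested. The groups did not overlap for 5 of 6 genes, as they did not for 58.7% of all genes tested, and the exact two-sided permutation p was 0.1 for each of these 5, the smallest that 3 against 3 can give. Without PT-KO+I/R 3 or without PT-KO+I/R 4, 3 of 6 genes were called, since Hbb-bt and Bpgm were lost. DESeq2 (adjusted p = 0.0501 for Bpgm) and edgeR without a low-count filter (0.0516) each called the other 4. Without Ctrl+I/R 4, the highest library, Bpgm was lost and Hbb-bs (-1.06), Hbb-bt (-0.83), Hba-a1 (-0.96) and Alas2 (-1.59) stayed called. With total counts in place of TMM, the median of all genes moved to -0.21 and the called genes split into 1978 higher and 5080 lower in place of 3444 and 3725, and Hbb-bs was at -1.80.

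**Figure D2:**
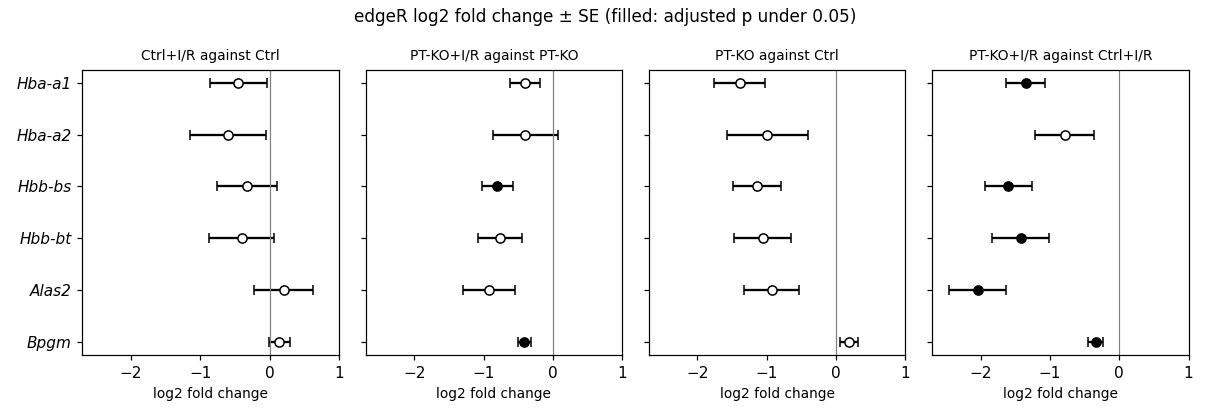
edgeR log2 fold changes (horizontal axis) with their SE for the 6 genes in the 4 pairwise comparisons; filled points have an adjusted p under 0.05. Between the injured groups 5 of 6 points are filled, from Alas2 at -2.04 to Bpgm at -0.34, and in PT-KO against Ctrl the globin points lie between -1.39 and -0.99 without reaching the threshold.

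Between the sham groups the globin log2 fold changes lay between -1.39 and -0.99, and none passed the test. In PT-KO against Ctrl, Hba-a1 had a log2 fold change of -1.39 (SE 0.37, adjusted p = 0.203), Hbb-bs of -1.14 (SE 0.35, adjusted p = 0.214), Hbb-bt of -1.06 (SE 0.41, adjusted p = 0.268), Hba-a2 of -0.99 (SE 0.59, adjusted p = 0.416) and Alas2 of -0.93 (SE 0.40, adjusted p = 0.297). Bpgm was at 0.19 (SE 0.13, adjusted p = 0.465). The edgeR test called 0 of 6 genes and 0% of 15291 genes, of which 2573 had an unadjusted p under 0.05, and 3 of the 6 members were among these (Hba-a1, Hbb-bs and Hbb-bt). DESeq2 called 458 genes and 0 of the 6, and edgeR without a low-count filter called Hba-a1 (adjusted p = 0.0206) and Hbb-bs (adjusted p = 0.0377). The median over the 6 genes was -1.02, beside -0.011 over all genes tested, and Hba-a1 lay at percentile 0.837 of all log2 fold changes. All 6 genes overlapped between the groups, where 21% of genes did not. Ctrl 3 weighed on these values. Without it, Hba-a1 was at -1.04 (adjusted p = 0.0717) and Hbb-bs at -0.80 (adjusted p = 0.119), and Hba-a2 moved to -0.31. Bpgm was then called higher in PT-KO (0.35, adjusted p = 0.0393). That fit sets only female controls against male PT-KO libraries, so genotype and sex cannot be told apart in it. With sex as a covariate, which leaves Ctrl 3 as the only control of the same sex, Hba-a1 was at -1.90 (adjusted p = 0.299).

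No member passed the test for injury in controls. In Ctrl+I/R against Ctrl, 0 of 6 genes were called by edgeR or DESeq2, and 0 of 6 had an unadjusted p under 0.05. Of all 15567 genes 19.4% were called, and 5907 had an unadjusted p under 0.05. The log2 fold changes ran from -0.60 (SE 0.55, adjusted p = 0.456) for Hba-a2 and -0.33 (SE 0.43, adjusted p = 0.604) for Hbb-bs to 0.20 (SE 0.43, adjusted p = 0.76) for Alas2. All 6 genes overlapped between these groups, where 43.7% of genes did not. The size of the globin differences depended on single libraries. Without Ctrl 3, which leaves only female controls against male Ctrl+I/R libraries, Hba-a1 was at -0.08, Hbb-bt at -0.01, Hbb-bs at 0.01 and Hba-a2 at 0.09. Without Ctrl+I/R 4 the 4 globins lay between -1.12 (Hba-a2) and -0.84 (Hba-a1), again with no call. With sex as a covariate they lay between -1.41 (Hba-a2) and -0.835 (Hbb-bs). Ctrl 3 is the only male sham control, so sex and this library cannot be told apart.

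In the knockout, Hbb-bs and Bpgm fell after injury. In PT-KO+I/R against PT-KO, Hbb-bs had a log2 fold change of -0.80 (SE 0.22, adjusted p = 0.00968) and Bpgm of -0.41 (SE 0.09, adjusted p = 0.00244), and these were the only members whose groups did not overlap, as for 70.8% of genes. The other 4 did not pass: Alas2 was at -0.92 (SE 0.37, adjusted p = 0.0529), Hbb-bt at -0.76 (SE 0.32, adjusted p = 0.0601), Hba-a1 at -0.40 (SE 0.22, adjusted p = 0.131) and Hba-a2 at -0.40 (SE 0.47, adjusted p = 0.475). So 2 of 6 genes were called, in a comparison that called 65.5% of 15155 genes, 32.7% as lower. The count depended on the setting: DESeq2 called 4 of 6, a single fit to all 12 libraries 1 of 6, with Hbb-bs lost (adjusted p = 0.0964), and the test without PT-KO 1, the PT-KO library with the lowest globin level, 5 of 6. Without PT-KO 2, the PT-KO library with most globin, Hbb-bs was at -0.49 (adjusted p = 0.032).

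The change with injury was compared between genotypes by an interaction term on all 12 libraries, which called 30.6% of 16168 genes. Only Bpgm passed, with an injury effect lower by 0.53 on the log2 scale in the knockout (SE 0.18, adjusted p = 0.0433). This call was lost when any of 9 of the 12 libraries was left out and with sex as a covariate (-0.26, adjusted p = 0.315). For the globins the interaction lay between -0.46 (Hbb-bs, SE 0.55, adjusted p = 0.554) and 0.21 (Hba-a2, SE 0.81, adjusted p = 0.866), and for Alas2 it was -1.11 (SE 0.63, adjusted p = 0.198). The fold changes by genotype in the injured and the sham kidneys were thus not shown to differ for the globins or Alas2.

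The proportions of the globin genes within a library varied less than their sum. The α genes took between 15.7% and 23.2% of the adult globin counts over the 12 libraries, with means of 19.1% ± 1.21 in Ctrl, 18.7% ± 1.69 in Ctrl+I/R, 17.2% ± 1.34 in PT-KO and 21.5% ± 1.44 in PT-KO+I/R (SD, n = 3 each). All 3 PT-KO+I/R libraries (20.7%, 23.2% and 20.7%) lay above every other library, the next being Ctrl 3 at 20%, a value that the 95% Wilson intervals of PT-KO+I/R 2 (17.5 to 24.3%) and 4 (17.9 to 23.8%) covered. Hbb-bt took between 11.3% and 16.9% of the β counts and Hba-a2 between 8.49% and 21.2% of the α counts, a 2.5-fold range, where the reads shared within pairs limit what these shares mean. The ratio of Alas2 to the globins ranged 2.13-fold over the 12 libraries. It was 37.8, 43.1 and 35.3 counts per 1000 globin counts in Ctrl, 38, 43 and 52.2 in PT-KO and 29.8, 36.3 and 50.7 in PT-KO+I/R, and it was higher in Ctrl+I/R, at 55.1, 63.5 and 54.6. The Ctrl+I/R values lay above those of every other library, though the exact Poisson intervals of PT-KO+I/R 4 (35.7 to 69.9) and PT-KO 4 (39.8 to 67.2) covered all 3. Bpgm did not keep such a ratio. It ranged from 252 counts per 1000 globin counts in Ctrl 3 to 1111 in PT-KO 1, 4.41-fold, close to the range of the globin sum itself.

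**Figure D3:**
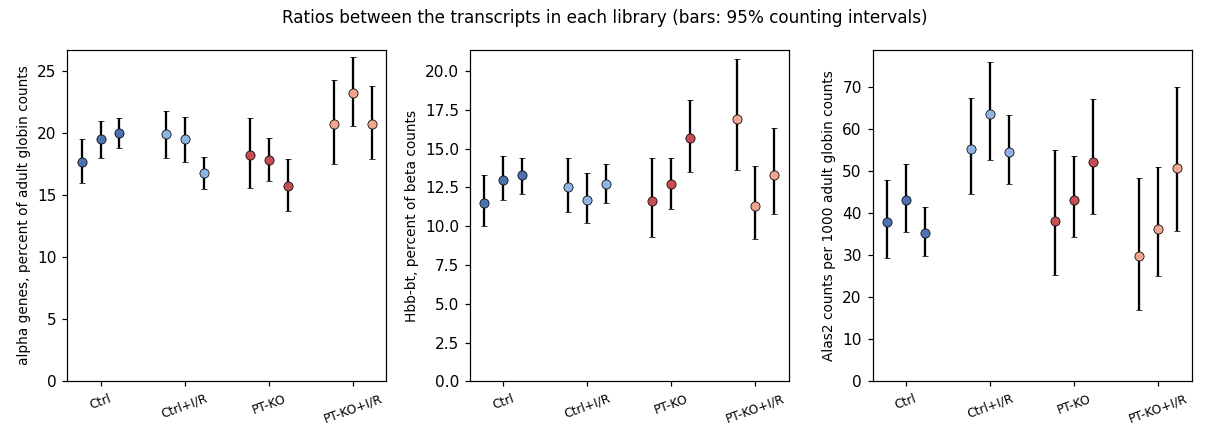
Share of α genes in the adult globin counts, share of Hbb-bt in the β counts, and Alas2 counts per 1000 adult globin counts (vertical axes, from 0) in each library by group; bars are 95% intervals for counting error (Wilson for shares, exact Poisson for the Alas2 count). The shares stay within 15.7 to 23.2% and 11.3 to 16.9%, and the Alas2 ratio is between 54.6 and 63.5 in Ctrl+I/R and between 29.8 and 52.2 elsewhere.

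The members were compared with each other across libraries as a description, since the 12 points share their groups and library scaling. On log2(CPM + 1), Pearson's r was 0.977 between Hba-a1 and Hbb-bs and 0.957 between Alas2 and Hbb-bs. After the group means were removed, these were 0.968 and 0.952, so the genes also varied together among libraries of the same group. Between Bpgm and Hbb-bs r was 0.573, and 0.797 after the group means were removed. Against the mean of the 4 globins, Alas2 ranked 5 of 16168 genes, with r of 0.929 (Spearman's rho 0.923), and Bpgm ranked 1904. After the group means were removed, Alas2 ranked 10 and Bpgm 116. By Pearson's r, the gene outside the set with the closest pattern was Snx6, which encodes a sorting nexin (r 0.951, rho 0.93, below the rho of 0.944 of Cep63). Next came Cdkal1 (0.892), Hint3 (0.885), Gm15344 (0.884), Gm47882 (0.873), Cep63 (0.873), Chrna7 (0.867), Slc35b2 (0.865), Lss (0.852) and Scml2 (0.846). After the group means were removed, these genes ranked between 14 (Snx6) and 1400 (Scml2).

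**Figure D4:**
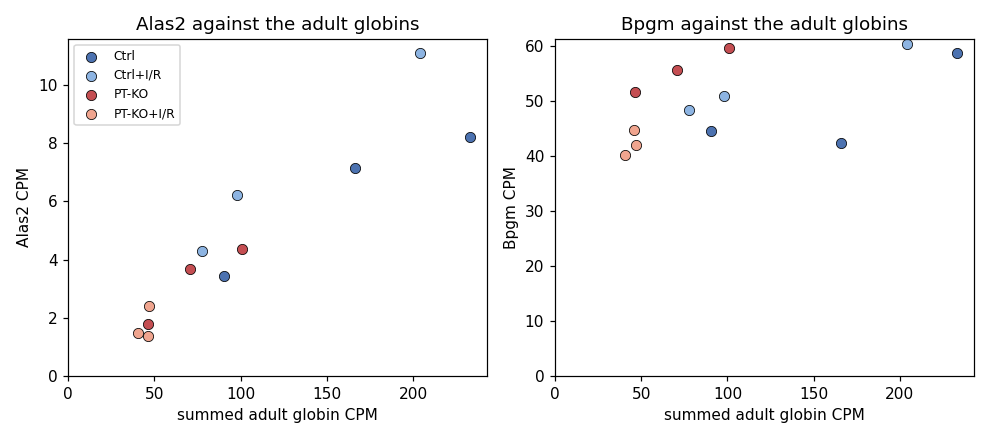
CPM of Alas2 (left) and Bpgm (right) against the summed CPM of the 4 adult globin genes in the 12 libraries, coloured by group, with both axes from 0. Alas2 rises with the globin sum across all groups, from 1.37 to 11.1 CPM, while Bpgm stays between 40.2 and 60.3 CPM over globin sums of 40.5 to 233 CPM.

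Some other genes of the erythroid line had few or no counts: 2 of 15 membrane genes, 2 of 8 transcription factors and 5 of the 15 late erythroid genes in the table had at most 3 in every library. The embryonic globins Hbb-y, Hbb-bh1 and Hba-x had 0 counts in all 12 libraries, and so did Hemgn, an erythroid nuclear factor, and Rhag, a red cell membrane glycoprotein. Gata1, the main erythroid transcription factor, had 0 counts in 11 libraries and 3 in PT-KO 1. The erythropoietin gene Epo had at most 3 counts. A count of 0 in a library says only that the gene was not detectable at this depth. Of the other globin genes, Cygb (cytoglobin), which is made by fibroblast-like cells, fell in PT-KO+I/R relative to Ctrl+I/R (-1.75, SE 0.48, adjusted p = 0.0187).

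Between the injured groups 46.9% of all genes were called (24.4% lower), and for injury in the knockout 65.5%. The heme synthesis list moved in both directions. Of its 11 genes, which include Alas2, 5 fell and 2 rose in PT-KO+I/R relative to Ctrl+I/R, and 6 fell and 3 rose relative to PT-KO, with medians of -0.45 and -0.51 beside -0.005 and 0.012 over all genes. The housekeeping gene Alas1 moved opposite to Alas2: it rose by 1.60 (SE 0.25, adjusted p = 0.00192) relative to Ctrl+I/R. Uros, which encodes uroporphyrinogen synthase, fell by 2.57 (SE 0.17, adjusted p = 0.000117) in the same comparison. Alad, which encodes the enzyme after ALAS, fell by 0.73 (SE 0.13, adjusted p = 0.00329) and the mitochondrial transporter gene Abcb10 by 0.64 (SE 0.14, adjusted p = 0.00872). The levels of Alas1 (179 CPM) and Uros (21.2 CPM) in Ctrl were above that of Alas2 on the CPM scale, which does not allow for gene length.

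Of 15 genes for the red cell membrane and skeleton, 8 were tested, and 3 fell and 2 rose in PT-KO+I/R relative to Ctrl+I/R (median -0.14), where 46.9% of all genes were called and 24.4% were lower. Slc4a1, the anion exchanger of red cells and of type A intercalated cells of the collecting duct, fell by 5.80 (SE 1.16, adjusted p = 0.00522). It had 1076 and 892 counts in Ctrl 1 and 2 and 694 in Ctrl 3, where the globins were highest, and 317, 25 and 450 counts in Ctrl+I/R 1, 2 and 4, where it was highest in the library with most globin. The intercalated cell gene Slc26a7 had the same order there, at 2.46, 0.313 and 4.62 CPM. Slc12a1 of the thick limb and distal tubule had it as well (486, 59.9 and 720 CPM). Kit of intercalated cells did not (18.1, 13.2 and 17.6 CPM). The 7 listed intercalated cell genes summed to 179 to 249 CPM in Ctrl+I/R and 231 to 252 CPM in PT-KO+I/R. Of these, 1 rose and 1 fell between the injured groups (median -0.17), and Slc26a7 was not called (adjusted p = 0.0865). The part of intercalated cells in the Slc4a1 values was not tested. Dmtn, which encodes the actin-binding protein dematin, fell by 2.26 (SE 0.32, adjusted p = 0.00118), while the spectrin gene Sptb rose by 0.93 (SE 0.21, adjusted p = 0.00898) and Epb41 by 0.47 (SE 0.11, adjusted p = 0.0114). Of 8 erythroid transcription factors 5 were tested. Lmo2, also made by endothelium, fell by 0.84 (SE 0.17, adjusted p = 0.00511), and Ldb1 (0.60, SE 0.11, adjusted p = 0.00398) and Zfpm1 (0.63, SE 0.18, adjusted p = 0.0213) rose. Klf1 had 4 to 59 counts and a log2 fold change of -1.22 (SE 0.52, adjusted p = 0.0859), and it fell by 2.17 (SE 0.44, adjusted p = 0.00153) in PT-KO+I/R relative to PT-KO.

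Among 15 late erythroid and red cell genes in the table, which include Bpgm, 10 were tested, and 2 fell and 4 rose in PT-KO+I/R relative to Ctrl+I/R (median -0.08), where 46.9% of all genes were called and 24.4% were called lower. Pklr, the pyruvate kinase gene of liver, kidney and red cells, fell by 2.09 (SE 0.24, adjusted p = 0.000572). Blvrb, which encodes biliverdin reductase B of red cells and liver, rose by 2.11 (SE 0.16, adjusted p = 0.000173), Bnip3l, a mitophagy receptor gene, rose by 0.39 (SE 0.10, adjusted p = 0.0164), and Mkrn1 by 0.68 (SE 0.12, adjusted p = 0.00295).

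Genes that clear free hemoglobin and heme moved in both directions after injury. Of 16 such genes, 4 rose and 3 fell in Ctrl+I/R relative to Ctrl (14 tested, where 19.4% of all genes were called). In PT-KO+I/R relative to PT-KO, 9 rose and 4 fell (15 tested, where 65.5% were called). With sex as a covariate in the fit to the control groups, almost no gene was called. The calls in controls of the 4 genes that follow were lost there. More genes were called with sex in the fit to all 12 libraries. Ctrl 3 is the only male sham control in both fits. Hmox1, the inducible heme oxygenase, rose by 2.59 (SE 0.43, adjusted p = 0.0125) in controls and by 4.01 (SE 0.30, adjusted p = 1.9e-06) in the knockout. Fth1, the ferritin heavy chain, rose by 1.10 (SE 0.25, adjusted p = 0.0282) and by 1.94 (SE 0.13, adjusted p = 7.6e-07). The genes for the proximal tubule receptors that take up filtered hemoglobin, Lrp2 (megalin) and Cubn (cubilin), fell by 1.25 (SE 0.30, adjusted p = 0.0318) and 0.96 (SE 0.24, adjusted p = 0.0337) in controls and by 2.58 (SE 0.12, adjusted p = 8.54e-08) and 2.94 (SE 0.10, adjusted p = 3.22e-08) in the knockout. In the oxygen-sensing list, 2 of 5 tested genes rose and 1 fell between the injured groups, where 46.9% of all genes were called. Hif1a was at 0.65 (SE 0.13, adjusted p = 0.00491), Epas1 at 0.53 (SE 0.14, adjusted p = 0.0147) and Egln3 at -0.92 (SE 0.19, adjusted p = 0.00649).

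Genes of other blood cells differed between the injured groups in both directions. The summed level of 12 neutrophil genes was 2.01 to 2.6 CPM in Ctrl, 10.6 to 43.4 in Ctrl+I/R, 1.23 to 3.09 in PT-KO and 57.7 to 91.6 CPM in PT-KO+I/R, highest where the globins were lowest. Ly6g, Camp, Mpo and Elane had at most 3 counts in any library. In PT-KO+I/R relative to Ctrl+I/R, where 46.9% of all genes were called and 24.4% were called lower, 5 of 7 tested neutrophil genes rose, S100a9 by 1.67 (SE 0.42, adjusted p = 0.013) and Retnlg by 3.34 (SE 0.35, adjusted p = 0.000416). The sum of 10 lymphocyte genes was 6.58 to 20.4 CPM in Ctrl+I/R and 0.513 to 0.967 CPM in PT-KO+I/R. Cd8a fell by 5.68 (SE 0.67, adjusted p = 0.00062) and Trac by 4.70 (SE 0.76, adjusted p = 0.00215), the lymphocyte genes tested there. The sum of 8 monocyte and macrophage genes was 115 to 222 CPM in Ctrl+I/R and 44.5 to 55.2 CPM in PT-KO+I/R, with 6 of 8 genes lower, among them Adgre1 (-4.37, SE 0.38, adjusted p = 0.000251), and Cd68 higher by 0.76 (SE 0.18, adjusted p = 0.0117). Platelet genes summed to 7.91 to 11.8 CPM in Ctrl+I/R and 5.05 to 9.3 CPM in PT-KO+I/R, and 1 of 3 tested platelet genes, the chemokine gene Pf4, fell by 1.38 (SE 0.47, adjusted p = 0.0437), while Ppbp was at -0.09 (adjusted p = 0.913) and Itga2b at -0.20 (adjusted p = 0.673). Endothelial genes, which mark the vessels that hold the blood, summed to 502 to 529 CPM in Ctrl+I/R and 527 to 570 CPM in PT-KO+I/R, with 3 of 10 higher and 3 lower. Proximal tubule genes summed to 2492 to 5911 CPM in Ctrl+I/R and 2359 to 3317 CPM in PT-KO+I/R, with 2 of 8 lower, and podocyte genes to 358 to 392 and 363 to 419 CPM, with 1 of 5 lower. Inner medulla genes summed to 72.3 to 81.8 CPM in Ctrl+I/R and 25.8 to 43.5 CPM in PT-KO+I/R, with 2 of 2 lower. The part of these changes in the globin levels was not tested.

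**Figure D5:**
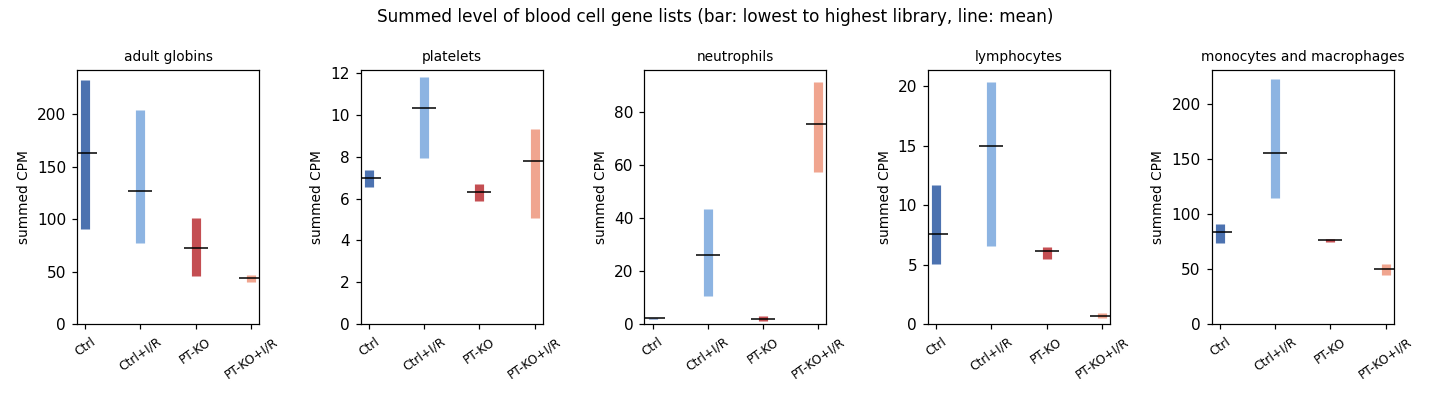
Summed CPM (vertical axes, from 0) of the adult globins and of the platelet, neutrophil, lymphocyte and monocyte or macrophage lists by group; bars run from the lowest to the highest of 3 libraries and the black line is the mean. In PT-KO+I/R the globin sum is 40.5 to 47.1 CPM, its lowest, while the neutrophil sum is 57.7 to 91.6 CPM, its highest.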

How the data were processed

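The deposited table held raw read counts per gene, whole numbers that the authors had not normalized. The submitters' processing notes name HISAT2 2.0.4 and mm10, and the counter, annotation and strandedness are not given in the sources used here. Of the 55487 identifiers, 55141 had a symbol in GENCODE M21. The counts of the 6 libraries of each comparison (all 12 for the interaction) were filtered with filterByExpr, scaled by TMM and tested with the quasi-likelihood test of edgeR 4.0.16 (R 4.3.3). Benjamini-Hochberg adjustment covered all tested genes, and an adjusted p under 0.05 was called. CPM use the 12-library TMM factors, and RPKM divide them by the union of exons. Same-numbered libraries did not deviate together (12 pairs, median r -0.0306, 1 over 0.1), so numbers were not taken as pairs. The script was tested on simulated data. Alternatives were DESeq2 1.42.0, other scalings and filters, a fit to all 12 libraries, a replicate block, a sex covariate and leaving out each library. A sex covariate in a fit to all 12 libraries was added after seeing the data. Genes named were taken from the 6 members, up to 4 genes per list with the smallest p over the pairwise comparisons, and the 10 genes most correlated with the globins; proximal tubule, podocyte and endothelial lists are given as sums, and genes at or near 0 counts, Hbb-y, Hbb-bh1, Hba-x, Hemgn, Rhag, Gata1 and Epo among them, were chosen after their values were seen. The members and lists were chosen with earlier results of these data known. Another 2 genes were left out of the lists and are not reported here, and kidney lists other than those given served only as checks. Single genes were also tested by exact two-sided permutation of log2(CPM + 1). Depth was 12165089 to 23123693 counts per library, and the spread between libraries exceeded counting error in most groups.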

Additional observations from a re-analysis of the deposited data

Results flagged for a closer look

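The injury effect on Bpgm differed between genotypes in the interaction test (-0.53, adjusted p = 0.0433), the only one of the 6 members to do so. This call was lost with sex as a covariate. Ctrl 1 and Ctrl 2 are the only female libraries, so injury in controls and sex cannot be told apart in any interaction value given here. Of the other genes named from the globin, erythroid, oxygen-sensing, clearance, platelet and leukocyte lists, 25 of 41 passed the threshold too, where 30.6% of all genes did, and these 41 had been taken for small p-values in the pairwise comparisons of the same libraries. Lower in the knockout were the heme synthesis and transport genes Uros (-2.67), Alad (-0.71) and Abcb10 (-0.65), the listed genes Slc4a1 (-5.63), Dmtn (-1.98) and Pklr (-1.87), the factor Lmo2 (-0.89), the globin Cygb (-2.0), the oxygen sensor Egln3 (-1.03) and the receptors Cubn (-1.96) and Lrp2 (-1.32). Higher were Alas1 (1.45), Blvrb (2.12), Bnip3l (0.59), Sptb (0.99), Ldb1 (0.57), Hif1a (0.52) and Fth1 (0.85). Of the leukocyte genes, Retnlg (4.76) and Cd68 (0.99) were higher, and Cd8a (-5.03), Trac (-4.28), Cd3e (-3.34), Csf1r (-1.29) and Adgre1 (-4.23) lower. Groups of 3 libraries are too small for an outlier test.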

How the results depend on the processing

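Of the alternatives computed for the 6 members' log2 fold changes, 385 kept direction and side of the threshold, 18 passed it newly, 21 lost it and 26 changed sign. Of those for other named genes' called changes, 1354 kept the call and 237 lost it. The cause was not tested. Over all genes, Ctrl+I/R against Ctrl called 4938 in 1 fit to all 12 libraries and 379 to 4061 with a library left out. With sex as a covariate this comparison called 1 gene, and 2029 in the 12-library fit. Both of these counts rest on the only male sham control. PT-KO against Ctrl called 1 with total counts, 458 by DESeq2, 388 without a filter, 4 with sex and 0 to 1930 with a library left out. The interaction called 3233 genes with sex.

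Of the members, PT-KO+I/R against PT-KO called 4 by DESeq2, 4 without a filter, 4 with at least 10 counts everywhere, 1 in the 12-library fit and 2 to 5 with a library left out. PT-KO against Ctrl called 2 without a filter and 0 to 1 with a library left out. The same omission gave 3 to 5 between the injured groups, and 0 to 1 in the interaction, which gave 0 with sex. Total counts changed the split of all genes in Ctrl+I/R against Ctrl to 2346 higher and 766 lower from 1778 and 1241, and in the interaction to 1591 and 2997 from 2305 and 2648. The mean globin share of PT-KO+I/R was 0.00498% of non-mitochondrial counts. By Spearman's rho, 5 of the 10 most similar genes were shared.

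Numbers did not pair the libraries. With a replicate block, libraries with no same-numbered partner carry no information, which takes Ctrl 3 and PT-KO 4 out of the sham comparison and leaves 2 pairs, and does the same to the unpaired libraries of the other pairwise comparisons. In this fit PT-KO against Ctrl called 1378 genes and 3 members (Hba-a1, Hbb-bs and Hbb-bt), the injured groups 1683 genes and 3 members, injury in the knockout 3 members, and the interaction 3215 genes, with Hba-a1 at -0.44 and Hba-a2 at -0.39.

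Sign changes in Ctrl+I/R against Ctrl were Alas2 at -0.199 and Bpgm at -0.145 with sex (-0.196 and -0.144 in the 12-library fit). With a library left out, Alas2 ran from -0.252 to 0.47, Hba-a2 from -1.12 to 0.092 and Hbb-bs from -0.884 to 0.01. In the knockout Hba-a2 ran from -0.747 to 0.367 after injury, and Bpgm in PT-KO against Ctrl was at -0.077 with sex in both fits. In the interaction, Hba-a1 was at -0.041 with total counts, and with sex Hbb-bs was at 0.036 and Hbb-bt at 0.191. With a library left out of the interaction, Hba-a1 ran from -0.30 to 0.431, Hba-a2 from -0.471 to 0.978, Hbb-bs from -0.792 to 0.08 and Hbb-bt from -0.737 to 0.219.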
